A study of Mus musculus with 278 samples.

Results

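The 9 genes Trp63, Snai2, Id4, Sox10, Runx1, Zeb1, Zeb2, Twist2 and Nfib encode transcription regulators linked to the basal layer of the mammary gland. They were chosen by name, with earlier results of these data known, and all 9 were found among the 25135 named genes of the count files. Of these genes 15312 reached 1 CPM (counts per 1000000 reads) in 3 or more cells, and 8 of the 9 regulators did so. Twist2 did not. Single-cell RNA-seq was carried out on freshly isolated epithelial cells from FVB/NJ mice with the Fluidigm C1, a chip whose channels hold each captured cell in its own chamber. The series held 112 cells sorted as basal (Lin- CD29hi CD24+) and 43 cells sorted as luminal (Lin- CD29lo CD24+) from untreated adult mice, and 123 cells of the total epithelium from mice at mid-pregnancy. The labels name no animal, so a group stands for 1 sample. There was then no replicate against which a difference could be tested, and no test was made. The pregnancy cells were not sorted by lineage, so an effect of stage and an effect of the sort cannot be told apart.

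The mammary duct is a bilayer. An outer sheet of contractile basal (myoepithelial) cells rests on the basement membrane, and luminal cells line the cavity and make milk after pregnancy. Trp63 encodes p63, the p53 relative that maintains basal cells of stratified and glandular epithelia and drives their keratins and adhesion complexes. Snai2 (Slug), Zeb1, Zeb2 and Twist2 are known for repressing epithelial junction genes during epithelial to mesenchymal transition. Snail and Zeb proteins do so by binding E-box sequences in promoters. Id4 lacks a DNA-binding domain and sequesters other helix-loop-helix factors, Sox10 is best known for neural crest and glial cells, Runx1 binds DNA together with its partner Cbfb, and Nfib is a nuclear factor I protein present in many epithelia.

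Cells with 50000 or more read pairs in kept genes ("reads" from here on) were analysed, which left 85 adult basal, 41 adult luminal and 96 pregnancy cells. Reads per cell ran from 67170 to 1290736 in adult basal cells (median 378479), from 173150 to 1006261 in adult luminal cells (median 637857) and from 53966 to 790397 in pregnancy cells (median 215202). The sorts were checked against 8 basal and 8 luminal markers, none of them among the 9 regulators. A cell carried a lineage when 4 or more of its 8 markers reached 20 CPM, which is 1 read at the lowest depth analysed. By that rule 82 adult basal cells carried the basal markers only and 3 carried both sets, while 39 adult luminal cells carried the luminal markers only. The 2 other luminal cells stood apart, since 1 carried neither set and adult luminal cell 35 carried all 8 basal and 7 luminal markers. The pregnancy cells split into 32 with basal markers only, 33 with both sets, 27 with luminal markers only and 4 with neither. In 24 of the 96 pregnancy cells 3 or 4 luminal markers were found, so the line between the basal and the mixed class lies among many cells. Markers of a non-epithelial type (3 or more of a fibroblast, endothelial, immune, Schwann or pericyte list) were found in 1 adult basal, 6 adult luminal and 23 pregnancy cells.

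In GRCm38 Trp63 (Entrez 22061) lies at chr16:25683763-25892088, Snai2 (20583) at chr16:14705852-14709395 and Runx1 (12394) at chr16:92601466-92826074, all 3 on chromosome 16. Id4 (15904) lies at chr13:48261116-48266028, Sox10 (20665) at chr15:79154913-79164490 and Nfib (18028) at chr4:82290173-82506751. Zeb2 (24136) lies at chr2:44983512-45117442 and Twist2 (13345) at chr1:91801461-91848034. Reads were counted over the exons of each gene, which span from 1312 bases (Twist2) to 9113 bases (Zeb2) in the files.

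Promoter sequence is shown for 2 of the regulators and for 3 of the epithelial junction genes that Snail and Zeb proteins are known to repress. The motif searched was the E-box CAGGTG on both strands (CACCTG read on the other strand), in the 250 bases before each annotated start. Sequences come from RefSeq on GRCm38.p6, the same build as mm10, 5′ to 3′ on the strand of the gene, with the motif in capitals. The windows were chr13:48260866-48261115 (plus strand) for Id4, chr16:92826075-92826324 (minus) for the distal start of Runx1, chr17:87635729-87635978 (plus) for Epcam, chr5:134946935-134947184 (minus) for Cldn4 and chr17:57061951-57062200 (plus) for Crb3.
Id4: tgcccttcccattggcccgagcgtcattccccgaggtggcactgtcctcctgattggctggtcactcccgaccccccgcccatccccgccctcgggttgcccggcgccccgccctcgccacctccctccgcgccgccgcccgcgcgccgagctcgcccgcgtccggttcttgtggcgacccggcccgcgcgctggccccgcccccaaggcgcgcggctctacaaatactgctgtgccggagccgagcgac
Runx1: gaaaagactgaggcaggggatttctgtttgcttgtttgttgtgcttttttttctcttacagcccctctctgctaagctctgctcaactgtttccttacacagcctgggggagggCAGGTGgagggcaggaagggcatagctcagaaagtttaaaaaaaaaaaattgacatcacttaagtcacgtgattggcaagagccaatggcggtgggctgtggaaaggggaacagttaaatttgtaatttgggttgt
Epcam: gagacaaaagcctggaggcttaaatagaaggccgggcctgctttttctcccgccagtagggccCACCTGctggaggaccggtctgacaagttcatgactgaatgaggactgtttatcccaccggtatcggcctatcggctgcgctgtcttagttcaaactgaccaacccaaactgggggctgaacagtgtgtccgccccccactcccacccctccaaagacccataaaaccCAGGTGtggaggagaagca
Cldn4: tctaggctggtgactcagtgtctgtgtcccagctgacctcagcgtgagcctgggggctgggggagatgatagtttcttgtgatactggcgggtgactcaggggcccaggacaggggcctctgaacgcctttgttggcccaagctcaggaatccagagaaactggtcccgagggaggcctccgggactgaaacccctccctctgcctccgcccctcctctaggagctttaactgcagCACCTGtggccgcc
Crb3: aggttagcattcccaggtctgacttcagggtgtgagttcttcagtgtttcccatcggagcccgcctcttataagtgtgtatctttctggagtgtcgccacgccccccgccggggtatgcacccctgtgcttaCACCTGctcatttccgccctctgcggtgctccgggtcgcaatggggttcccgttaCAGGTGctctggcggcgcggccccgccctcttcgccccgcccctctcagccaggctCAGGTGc
The window of Epcam, an adhesion molecule used to sort epithelia, held 2 motifs. That of Cldn4, a claudin of tight junctions, held 1, and that of Crb3, an apical polarity protein, held 3. The Id4 window held none, and the distal Runx1 window held 1. Of the 27025 mouse genes with a promoter sequence, 19.4% held the motif in at least 1 window. Among the regulators with a sequence it was found in 1 of 4 genes (Runx1, and not Id4, Zeb2 or Twist2), and among the epithelial genes listed further on in 6 of 11 (Cldn4, Cldn7, Crb3, Epcam, Ocln and Tjp3). It was also found in 5 of 7 luminal regulators, 4 of 8 p63 target and adhesion genes and 4 of 13 relatives of the regulators, and in 0 of 8 other basal regulators and 0 of 4 mesenchymal genes. A match is a description of the letters in a window and no evidence of binding.

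The question of the adult comparison was which of the regulators separate the sorted basal from the sorted luminal cells. Trp63, Snai2, Id4 and Runx1 were higher in adult basal cells, Sox10 and Nfib differed by less than 2-fold, and Zeb1 and Zeb2 were higher in the luminal sort. Counts were summed over the cells of a group and expressed as CPM. Intervals are exact, at the 95% level, and cover counting error only, since PCR reads without molecular identifiers are not independent molecules. By this measure 4 of the 8 regulators with a ratio were 2-fold or more higher in adult basal cells, against 24.1% of the 14324 genes that had a ratio. The median log2 ratio of all those genes was -0.33. Zeb1 and Zeb2 were 2-fold or more lower, against 36.1% of the same genes. The regulators were chosen with earlier results of these data known, and Trp63, Snai2 and Id4 are on the study's own list of basal genes. A share above the background is therefore no independent result.

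Trp63 per cell ran from 0 to 1490 CPM in adult basal cells with a median of 7.03 CPM, and from 0 to 539 CPM in adult luminal cells with a median of 0. The summed level was 105 CPM in basal and 15.8 CPM in luminal cells, a log2 ratio of 2.73 (interval 2.58 to 2.89). Nearly all of the luminal reads came from a single cell: adult luminal cell 35, the cell that also carried all 8 basal markers, held 387 of 391 reads (99.0%). Without that cell the log2 ratio was 9.30, so the size of the difference rests on whether it is counted as luminal.

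Snai2 ran from 0 to 1053 CPM in adult basal cells and from 0 to 16.5 CPM in adult luminal cells, with a median of 0 in both. The summed levels were 97.8 and 0.524 CPM, a log2 ratio of 7.54 (6.77 to 8.46). Of the 13 luminal reads 84.6% lay in adult luminal cell 43, 1 of the 6 luminal cells with markers of another cell type, and without it the log2 ratio was 10.21. Id4 ran from 0 to 809 CPM in adult basal cells (median 0) and had no read in any of the 41 luminal cells. Its 959 basal reads gave 26.8 CPM, at least 222-fold higher than in luminal cells when 0 reads is replaced by a floor of 3 over the group. Id4 overlaps the gene A330033J07Rik, and with no strand stated for the counting their reads cannot be told apart.

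**Figure D1:**
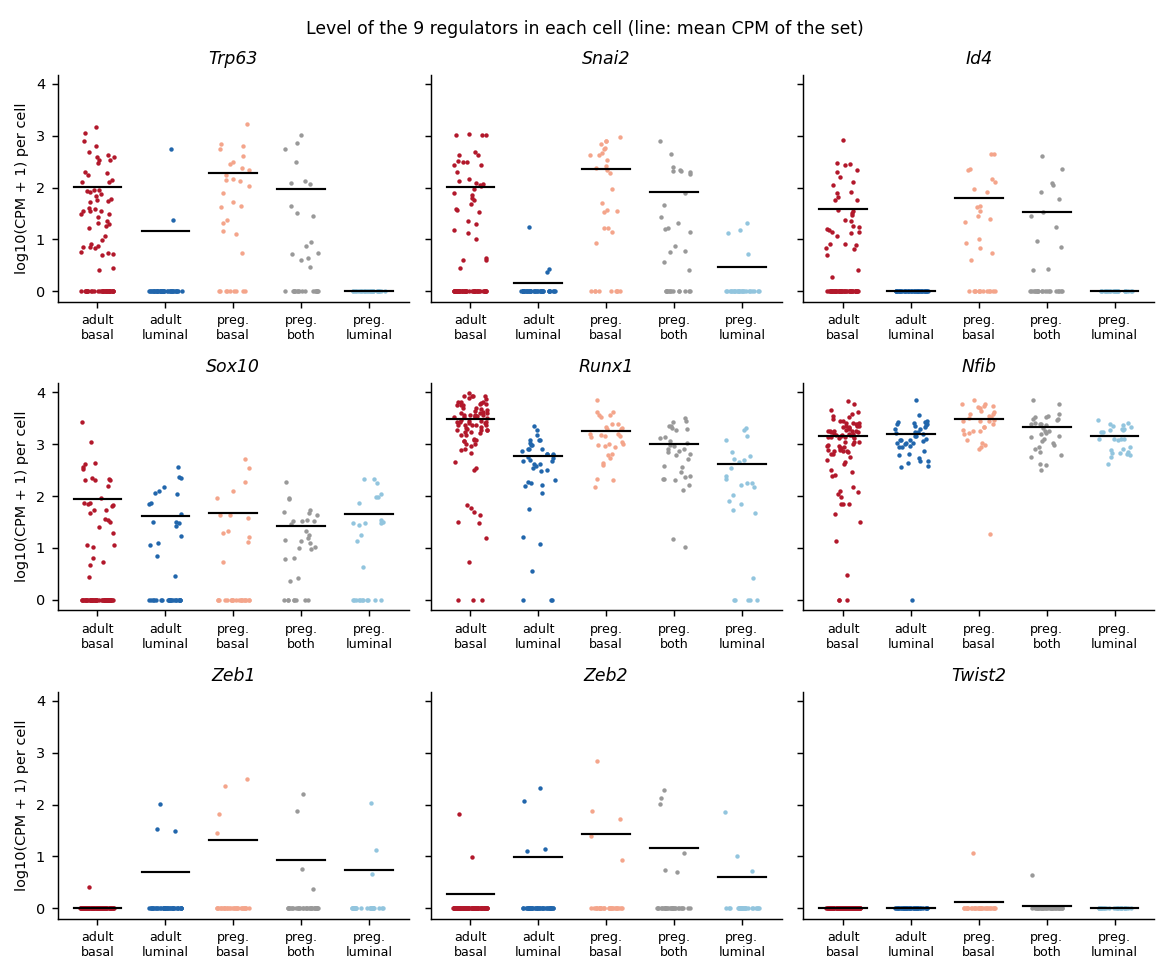
Level of each regulator in every cell on the vertical axis, as log10(CPM + 1), for adult basal (85), adult luminal (41) and pregnancy cells with basal markers only (32), both marker sets (33) or luminal markers only (27). Each point is 1 cell and the line is the mean of the cells' CPM. Trp63, Snai2 and Id4 mix cells at 0 with cells above 100 CPM in the basal sets. In the luminal sets they lie at 0 in most cells. Among adult luminal cells Trp63 is at 539 CPM in cell 35 and 23.1 CPM in cell 39, and Snai2 is at 16.5 CPM in cell 43. Nfib is found in nearly every cell and Runx1 in most cells of every set, and Zeb1, Zeb2 and Twist2 are at 0 in most cells of every set.

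These regulators were not found in every basal cell. With each cell thinned to 50000 reads, Trp63 was detected (1 or more reads) in 37 of 85 adult basal cells, or 43.5% (exact Clopper-Pearson interval 32.8 to 54.7%). Snai2 was detected in 36.5% (26.3 to 47.6%) and Id4 in 27.1% (18.0 to 37.8%). Without thinning the shares were 62.4%, 43.5% and 42.4%. In the thinned adult luminal cells Trp63 was found in 2 of 41, Snai2 in 1 of 41 and Id4 in 0 of 41. A count of 0 allows a share of up to 7.32% there when set at 3 of 41 cells (the exact interval ends at 8.60%). Detection at a fixed depth also reflects how much other RNA a cell holds: at 50000 reads the median cell showed 2257 genes in the adult basal and 3458 in the adult luminal group.

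Runx1 was the most abundant regulator of adult basal cells. It ran from 0 to 9510 CPM per basal cell (median 2504) and from 0 to 2278 CPM per luminal cell (median 470). The summed levels of 3341 and 582 CPM gave a log2 ratio of 2.52 (2.50 to 2.55), or 5.74-fold. The ranges of the 2 sorts overlapped, and Runx1 was detected in 95.3% of thinned basal and 87.8% of thinned luminal cells, so the sorts differed in its level far more than in its presence.

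Nfib ran from 0 to 6841 CPM (median 1332) in adult basal and from 0 to 7225 CPM (median 1207) in adult luminal cells. The log2 ratio was 0.20 (0.18 to 0.22), and Nfib was found in 92.9% and 97.6% of the thinned cells. It overlaps the gene 2310067E19Rik. Sox10 ran from 0 to 2626 CPM in basal and from 0 to 362 CPM in luminal cells, with a median of 0 in both. Its log2 ratio was 0.66 (0.55 to 0.77), while the share of thinned cells with a read was 29.4% (20.0 to 40.3%) in basal and 34.1% (20.1 to 50.6%) in luminal cells. Adult basal cell 2 held 16.3% of all basal Sox10 reads. With every cell given the same weight the log2 ratio was 1.07, which rests on adult basal cell 69, the cell at 2626 CPM, and without that cell it was 0.44. The ratio of summed levels was 0.44 without adult basal cell 2 and 0.99 without adult luminal cell 13. Schwann cell markers (3 or more of 6) were found in 0 of 85 adult basal and 0 of 41 adult luminal cells.

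**Figure D2:**
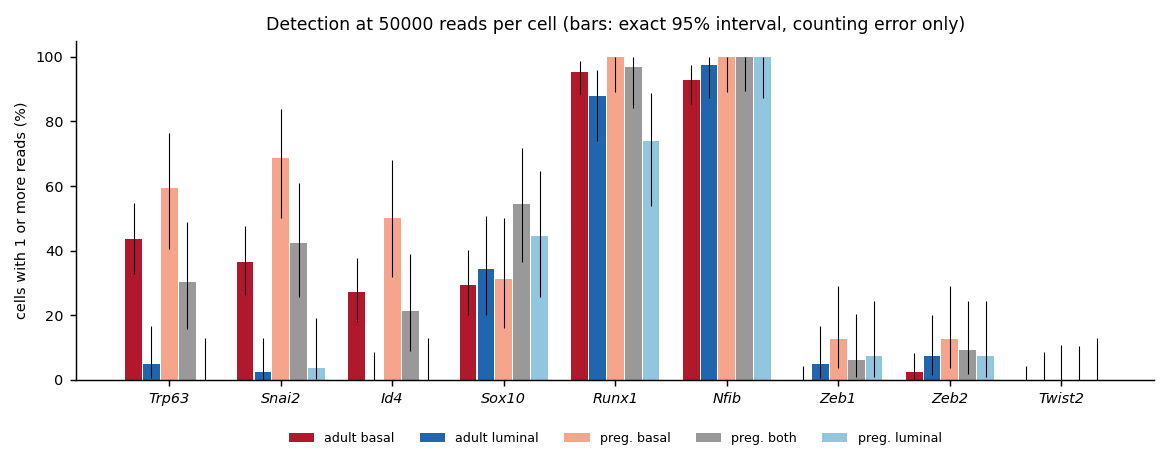
Percent of cells with 1 or more reads of each regulator after thinning every cell to 50000 reads, for the same 5 sets of cells, with exact 95% intervals that cover counting error only. Trp63, Snai2 and Id4 reach 43.5%, 36.5% and 27.1% of adult basal cells against 4.88%, 2.44% and 0% of adult luminal cells. Runx1 and Nfib are found in most cells of every set, with Runx1 in 20 of the 27 luminal-marked pregnancy cells.

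Compared per length of exon, which allows levels of different genes to be set side by side, the order in adult basal cells was Runx1 (453 RPKM, which is CPM per kilobase of exon), Nfib (187), Snai2 (48.5), Sox10 (23.4), Trp63 (17.3), Id4 (16.2), Zeb2 (0.049), Zeb1 (0.0048) and Twist2 (0). Only the intervals of Trp63 (16.7 to 17.9) and Id4 (15.2 to 17.2) overlapped among the 6 highest. In adult luminal cells Nfib (163 RPKM) stood above Runx1 (79.0), Sox10 (14.8) and Trp63 (2.60), followed by Zeb2 (0.893), Zeb1 (0.742), Snai2 (0.260), Id4 (0) and Twist2 (0). The intervals of Zeb2 (0.774 to 1.02) and Zeb1 (0.608 to 0.897) overlapped there.

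Zeb1, Zeb2 and Twist2, which belong with Snai2 among the known repressors of epithelial genes, were barely found in adult basal cells. Zeb1 had 1 read in 85 cells and Zeb2 had 16 reads in 2 cells. All 17 reads lay in 3 cells with fewer than 3 markers of any other cell type, at up to 65.6 CPM in adult basal cell 49. The 2 cells with Zeb2 lay just below that rule. Cell 49 carried 2 pericyte and only 4 of 8 basal markers, and cell 9 carried 2 fibroblast markers. At 50000 reads Zeb1 was found in 0 of 85 basal cells, which allows a share of up to 3.53% when set at 3 of 85 cells (the exact interval ends at 4.25%), and Zeb2 in 2.35% (0.286 to 8.24%). Twist2 had no read in either adult group and 2 reads in 2 of the 96 pregnancy cells.

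In the adult luminal group Zeb1 ran from 0 to 103 CPM and Zeb2 from 0 to 208 CPM, with a median of 0 for each. The summed levels gave log2 ratios of basal over luminal of -7.27 for Zeb1 (interval -12.58 to -4.76, from 1 against 107 reads) and -4.18 for Zeb2 (-5.02 to -3.45, from 16 against 202 reads). Leaving out the luminal cell with most of their reads (cells 27 and 43) gave -5.81 and -2.54, and leaving out the leading basal cell gave at most -5.66 and -5.59. All 309 Zeb1 and Zeb2 reads of the luminal group lay in 5 cells, and each of the 5 was among the 6 luminal cells with 3 or more markers of another cell type. The 35 other luminal cells had 0 reads of either gene. The 6 cells all carried 3 or more of 6 fibroblast markers, 2 of them also carried endothelial and 1 also pericyte markers, and in the 5 cells with a Zeb read 4 to 8 of the 8 luminal markers were found too. Without the 6 cells, and the 1 adult basal cell with such markers, Zeb2 was instead higher in basal cells, by a log2 ratio of at least 1.67. This rests on 16 basal reads in 2 cells, 10 of them in adult basal cell 49, against a floor of 3 for 0 luminal reads. No ratio could be given for Zeb1.

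The same held in pregnancy. Zeb1 ran from 0 to 307 CPM and Zeb2 from 0 to 695 CPM over the 96 cells, with a median of 0 for each. Of 214 Zeb1 and 267 Zeb2 reads, 474 (98.5%) lay in 17 of the 23 cells with 3 or more markers of another cell type. The 73 other cells held 7 reads in 5 cells, and in none of them did the 2 genes reach 5 reads. Among the 32 pregnancy cells with basal markers only, all 175 reads lay in 7 of the 9 cells that carried such markers, and the 23 others had 0. The cells with Zeb reads carried fibroblast markers in some cases (cells 7 and 50, 6 of 6), endothelial markers in others (cells 55 and 68) and immune markers in others (cells 32 and 35). The highest Zeb2 level, 695 CPM, was that of cell 32, which carried 8 of 8 basal and 4 of 6 immune markers. In thinned cells Zeb2 was found in 11 of 45 pregnancy cells with title numbers 1 to 55 and in 0 of 51 with higher numbers. Fibroblast markers followed the same division (10 of 45 and 0 of 51), while endothelial markers did not (5 of 45 and 5 of 51). Zeb1 was found among the higher numbers too, in thinned cells 62 and 68. The median thinned cell showed 3945 genes in the lower and 2811 in the higher numbers. The 11 thinned pregnancy cells with Zeb2 showed a median of 4313 genes and the 85 others 3104. For Zeb1 the medians were 4478 and 3096. In the luminal sort they were 4608 and 3439.5 for Zeb2 (3 cells with it) and 4153.5 and 3421 for Zeb1 (2 cells). The 2 adult basal cells with Zeb2 had 2233.5 against 2257. The overlap of Zeb reads with other types' markers was not tested at equal gene numbers. Whether some of these chambers held more than 1 cell was not tested either. Zeb1 and Zeb2 overlap other genes of the files (Gm10125 for Zeb1, Zeb2os and Mir5129 for Zeb2).

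**Figure D3:**
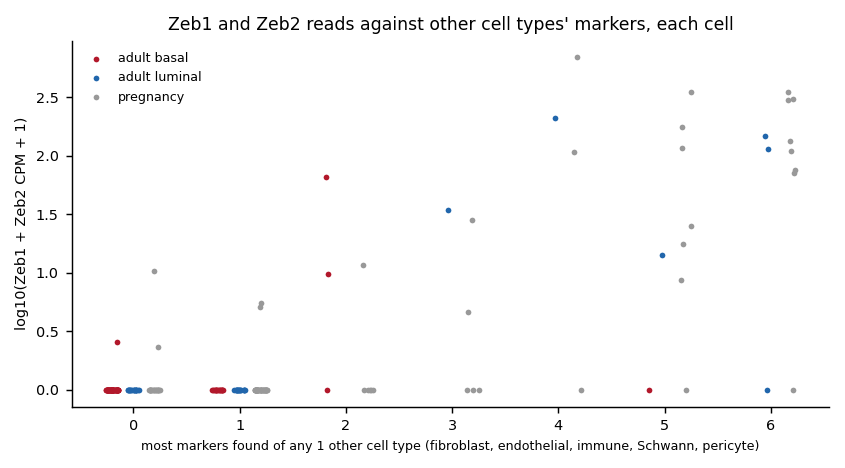
Summed Zeb1 and Zeb2 level of each cell, as log10(CPM + 1), against the largest number of markers the cell carried from any 1 of the fibroblast, endothelial, immune, Schwann and pericyte lists, for 85 adult basal, 41 adult luminal and 96 pregnancy cells (points are shifted sideways for legibility). Luminal cells with fewer than 3 such markers all lie at 0, and pregnancy cells with fewer than 3 do not exceed 10.7 CPM. In adult basal cells all Zeb1 and Zeb2 reads lie in cells with fewer than 3 such markers, at up to 65.6 CPM in a cell with 2 pericyte markers.

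Co-detection asked whether basal cells carry the regulators together. In the 85 adult basal cells, thinned to 50000 reads, Trp63 and Snai2 were found together in 15 cells where independence of their shares would give 13.5, Trp63 and Id4 in 10 where it would give 10.0, and Snai2 and Id4 in 8 where it would give 8.39. All 3 were found in 3 cells against 3.65, and none of them in 24 cells (28.2%, interval 19.0 to 39.0%) against 22.2. Trp63 was found alone of the 3 in 15 cells, Snai2 alone in 11 and Id4 alone in 8. The furthest from independence among pairs of the less frequent regulators was Trp63 with Sox10, at 14 cells against 10.9, or 12.4 when independence was taken within 3 bins of genes detected per cell. Pearson's r between log levels of Trp63, Snai2 and Id4 in these 85 cells ran from -0.03 to 0.08, on points that share a sort and differ in depth of detection. Cells with none of the 3 showed a median of 1922 genes, those with 2 showed 2752.

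In the 96 pregnancy cells, where the lineages were mixed, the same pairs were found together more often than independence gives. Trp63 and Snai2 were found in 18 cells against 11.2, Trp63 and Id4 in 16 against 6.95, and Snai2 and Id4 in 18 against 8.86. All 3 were found in 13 cells against 2.68. Within the 32 pregnancy cells with basal markers only these counts were 14 against 13.1, 12 against 9.50 and 13 against 11.0, and all 3 were found in 10 cells against 6.53. The excess over independence was thus smaller inside the basal class than over all pregnancy cells. Of the pairs with both members found, 14 of 21 in adult basal, 13 of 21 in adult luminal and 21 of 28 in pregnancy cells lay above independence by any margin, and 11, 9 and 20 did so when independence was taken within the bins. Of the 9 regulators, the median adult basal cell showed 3, the median adult luminal cell 2 and the median pregnancy cell 3, with up to 6, 5 and 7.

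**Figure D4:**
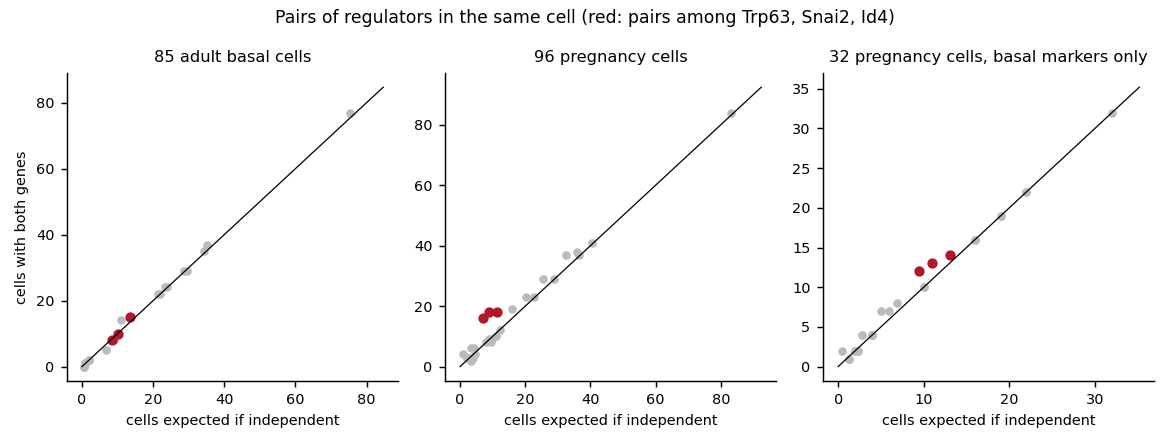
Number of cells in which both regulators of a pair were found (vertical axis) against the number expected if they were independent (horizontal axis), in 85 adult basal, 96 pregnancy and 32 basal-marked pregnancy cells thinned to 50000 reads. Each point is 1 pair, the line marks equality, and the pairs among Trp63, Snai2 and Id4 (red) lie close to the line in adult basal cells (8 to 15 cells) and above it in all pregnancy cells (16 to 18 cells).

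The pregnancy comparison asked how the regulators of basal-marked cells stood at the later stage. In the 32 pregnancy cells with basal markers only, Trp63 ran from 0 to 1641 CPM (median 47.4), Snai2 from 0 to 947 CPM (median 42.7) and Id4 from 0 to 446 CPM (median 6.78). Their shares in thinned cells were 59.4% (40.6 to 76.3%), 68.8% (50.0 to 83.9%) and 50.0% (31.9 to 68.1%). The summed levels over adult basal cells gave log2 ratios of 0.47 for Trp63 (0.36 to 0.58), 1.03 for Snai2 (0.93 to 1.13) and 1.05 for Id4 (0.85 to 1.24). Runx1 ran from 149 to 7067 CPM (median 1422) and had a log2 ratio of -1.12 (-1.15 to -1.09), Sox10 ran from 0 to 516 CPM (median 0) with -1.15 (-1.39 to -0.91), and Nfib ran from 17.9 to 7193 CPM (median 2825) with 0.80 (0.77 to 0.82). The ranges overlapped those of adult basal cells for all 6 genes.

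By the 2-fold line 2 of the 8 regulators with a ratio were lower (Sox10 and Runx1) against 25.1% of the 13512 genes with a ratio, and 4 were higher (Snai2, Id4, Zeb1 and Zeb2) against 26.9%. The share lower is near the background, and of the 4 higher regulators Zeb1 and Zeb2 rest on a few cells described below. Snai2, Id4, Sox10 and Runx1 lie close to the line. Without the pregnancy cell that holds most of its reads, Snai2 came to 0.88 and Id4 to 0.72, and without adult basal cell 2 Sox10 came to -0.93. When the 33 cells with both marker sets were counted with the 32, Snai2 came to 0.10 and Id4 to 0.09, while Sox10 and Runx1 stayed lower by 2-fold or more. When milk protein genes, which took 6.22% of the reads of the 32 cells and 0.00068% of those of adult basal cells, were left out of the totals, Sox10 came to -0.94 and Runx1 to -0.93. Zeb1 and Zeb2 were higher by log2 ratios of 8.97 (6.45 to 14.29, from 76 against 1 read) and 5.35 (4.58 to 6.21), all of the pregnancy reads in the cells with markers of another cell type described above. Pregnancy cell 32 held 75 of the 99 Zeb2 reads, and without it the Zeb2 ratio was 3.34. Zeb1 was at 8.14 without pregnancy cell 50. Leaving out the leading adult basal cell instead gave 6.76 for Zeb2 and at least 7.36 for Zeb1.

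The 16 basal-marked cells numbered 1 to 55 and the 16 numbered from 56 differed from each other. Over adult basal cells the log2 ratio was 0.99 and -0.17 for Trp63, 1.44 and 0.59 for Snai2, 0.41 and 1.42 for Id4, -2.69 and -0.53 for Sox10, and 1.12 and 0.46 for Nfib. Runx1 was the steadiest, with -0.99 and -1.24. The labels do not say what the numbers stand for, and the median cell showed 3486 genes in the lower and 2713 in the higher numbers once thinned to 50000 reads.

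Inside the pregnant gland the basal-marked cells stood over the 27 luminal-marked cells much as the adult sorts did for 4 regulators. Trp63 and Id4 had no read in the luminal-marked cells and were at least 315-fold and at least 121-fold higher in the basal-marked cells. Snai2 had a log2 ratio of 7.03 (6.15 to 8.09) and Runx1 one of 2.56 (2.49 to 2.64). Nfib was at 0.98 (0.94 to 1.02) and Sox10 at -0.55 (-0.84 to -0.26). With Zeb1 and Zeb2, 6 of the 8 regulators with a ratio were 2-fold or more higher, against 38.0% of 13360 genes. The calls of Zeb1 (1.61) and Zeb2 (2.65) each rest on 1 cell: without pregnancy cell 50 Zeb1 was at 0.79, and without pregnancy cell 32 Zeb2 was at 0.64. Without the luminal-marked cell with most of their reads (cells 68 and 36) they were at 4.46 and 4.85. Snai2 was at 7.71 without luminal-marked cell 61, which held 4 of the 10 luminal reads. Adult and pregnancy luminal cells had Sox10 at 40.2 and 41.8 CPM and Nfib at 1425 and 1442 CPM, while Runx1 was at 582 and 260.1 CPM, a log2 ratio of -1.16 (-1.24 to -1.09) where the median of all genes was -0.80.

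The 33 pregnancy cells with both marker sets held intermediate levels of the 4 regulators that were higher in adult basal cells. Trp63 ran from 0 to 1011 CPM (median 1.90), Snai2 from 0 to 776 CPM (median 5.09), Id4 from 0 to 406 CPM (median 0) and Runx1 from 9.50 to 3128 CPM (median 734). The summed levels of Trp63 (84.2 CPM), Snai2 (55.5), Id4 (14.9) and Runx1 (742) lay between those of the basal-marked and the luminal-marked pregnancy cells. Over adult basal cells their log2 ratios were -0.31 (-0.42 to -0.21), -0.82 (-0.94 to -0.69), -0.85 (-1.10 to -0.60) and -2.17 (-2.20 to -2.14). Pregnancy cell 82 held 450 of the 892 Trp63 reads (50.4%), and without it the Trp63 ratio was -1.27. Without the cell with most of its reads, Snai2 was at -1.03 and Id4 at -1.14. All 3 then lay past the 2-fold line, with milk genes in the totals. Milk protein genes took 28.8% of the reads of the 33 cells against 0.00068% in adult basal cells, and the median log2 ratio of all genes was -0.42. A larger milk share lowers the CPM of every other gene, and these ratios were not recomputed without milk genes. Sox10 did not follow the order of these 4 regulators. Its summed level was lowest in the mixed cells, at 20.8 CPM against 28.6 CPM in the basal-marked and 41.8 CPM in the luminal-marked cells. By detection the mixed cells were instead highest. Sox10 was found in 54.5% (36.4 to 71.9%) of the thinned mixed cells, 31.2% (16.1 to 50.0%) of the basal-marked and 44.4% (25.5 to 64.7%) of the luminal-marked cells, intervals that overlap. These cells carried a basal and a luminal set by the rule that chose them, and whether some chambers held more than 1 cell was not tested.

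Leaving out the 9 basal-marked pregnancy cells with markers of another cell type moved the 6 regulators little. Trp63 stood at 131 CPM in the 23 others against 145 CPM in all 32, Snai2 at 203 against 200.1, Id4 at 63.5 against 55.4, Sox10 at 29.8 against 28.6, Runx1 at 1644 against 1539 and Nfib at 3143 against 2846.

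**Figure D5:**
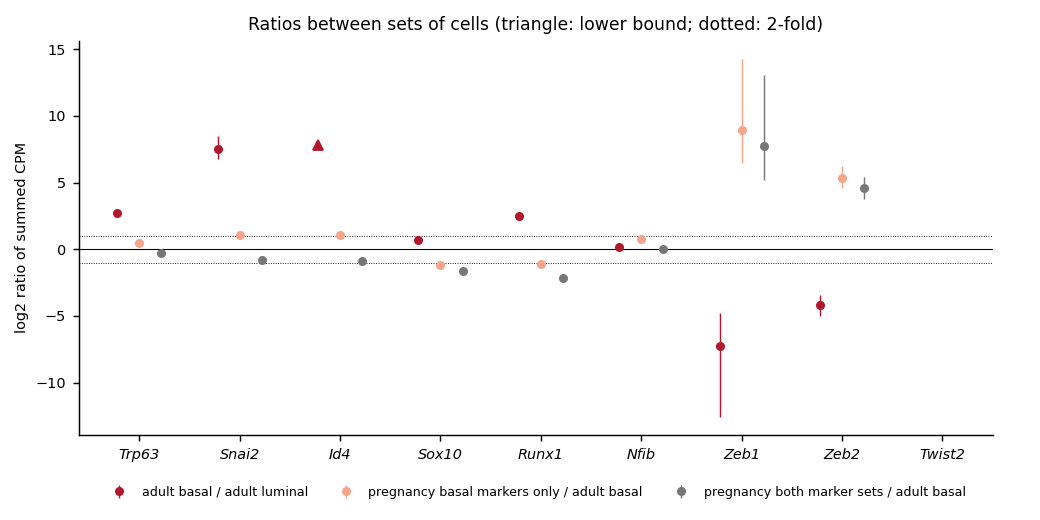
Log2 ratio of summed CPM for each regulator between adult basal and adult luminal cells, and between pregnancy cells with basal markers only or with both marker sets and adult basal cells. Bars are exact 95% intervals for counting error only, the triangle for Id4 is a lower bound, dotted lines mark 2-fold and Twist2 has no ratio. Trp63, Snai2, Id4 and Runx1 lie above the 2-fold line in adults, and Runx1 and Sox10 below it in both pregnancy sets.

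Lists of genes related to the regulators are described here in the adult comparison. They were chosen with earlier results of these data known. Many of their genes, such as Irx4, Tshz2, Krt5, Col17a1, Cldn4 and Foxa1, are on the study's own lists of genes that separate sorted basal from luminal cells. The counts below therefore describe the lists and are no independent support. Of 16 other basal regulators 11 were 2-fold or more higher in basal cells and 3 lower, with a median log2 ratio of 2.30 against -0.33 for all genes. Of all genes with a ratio 24.1% were higher and 36.1% lower by 2-fold or more, which is the background for each list of this comparison. Irx4, a homeobox gene, had a ratio of at least 9.32 (77.1 CPM against 0 reads), Tshz2 6.41, and Yap1, the Hippo pathway coactivator, 2.91. Mef2c, a muscle regulator, had 2.41. Of 16 known p63 targets and basal adhesion genes 14 were higher and 1 lower (median 2.76). The basal keratins Krt5 and Krt14 had log2 ratios of 8.13 and 5.75, the hemidesmosomal collagen Col17a1 6.07 and the desmosomal plakophilin Pkp1 5.66. Without the luminal cell with most of its reads Krt5 was at 12.55. Krt5 and Krt14 are also basal markers used for the classes.

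Of 16 epithelial genes that Snail, Zeb and Twist proteins repress, or that uphold the epithelial state, 14 were lower in basal cells and 0 higher (median -5.62). Cldn4 stood at 0.784 CPM in basal and 319 CPM in luminal cells, a log2 ratio of -8.67. Ocln was at -8.60, Grhl1 at -6.39 and Cldn7 at -6.18. Each without the basal cell with most of its reads, Ocln was at -10.91 and Cldn7 at -7.63. Epcam and Crb3, whose windows are printed above, had ratios of -1.32 and -4.38, and E-cadherin (Cdh1) had -1.36. Of 8 mesenchymal genes 5 were higher in basal cells, including Sparc (2.85), Tnc (2.70), Mmp2 (2.67) and Vim (1.56). Fn1 was lower, at -6.02, and was found in 12.2% of thinned luminal cells. Of 8 luminal regulators 7 were lower in basal cells and 1, Stat5a, was higher at 1.92. Foxa1 had no read in basal cells, a ratio of at most -11.70, and Ehf stood at -10.77, Esr1 at -4.91 and Elf3 at -2.41. Each without the basal cell with most of its reads, Ehf was at -11.99, Esr1 at -8.63 and Elf3 at -4.04. Among 16 relatives of the regulators 15 had a ratio, of which 5 were higher and 1 was lower. Id2 stood at 1.90, Nfix at 1.38, Nfia at 0.83 and Nfic at -0.64.

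In basal-marked pregnancy cells more of the epithelial genes were higher than lower. Over adult basal cells 8 of 15 epithelial genes with a ratio were 2-fold or more higher and 3 lower (median 1.66 against -0.085 for all genes), where 26.9% of all genes were higher and 25.1% lower. Cldn4 was at 0.784 CPM in adult and 7.76 CPM in pregnancy cells, and Cdh1 was at 74.7 and 78.2 CPM. Epcam was lower, at 319 CPM against 552 CPM. Of the p63 target and adhesion genes 1 of 15 was higher and 3 were lower, of the other basal regulators 3 and 2 of 15, of the mesenchymal genes 2 and 2 of 8, of the luminal regulators 3 and 2 of 8, and of the relatives 0 and 5 of 14. Over luminal-marked pregnancy cells 14 of 15 p63 target and adhesion genes (median 4.36) and 12 of 15 other basal regulators (median 1.86) were higher with none lower, and 12 of 16 epithelial genes were lower and 2 higher. The background there was 38.0% higher and 22.2% lower. Krt5 and Krt14, and the claudins of the epithelial list, also served to define the classes.

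Within adult basal cells the lists were also set beside the presence of a regulator. The 37 cells with Trp63 and the 48 without it showed a median of 10 of the 16 p63 target and adhesion genes each, and the 31 cells with Snai2 and the 54 without it showed a median of 2 of the 16 epithelial genes each. The summed level of the epithelial list had a median of 740 CPM in cells with Snai2 and 420 CPM in those without. Cells with Snai2 also showed more genes, a median of 2705 against 2033.5. Other list levels went the other way. The p63 target and adhesion list had a median of 8620 CPM with Trp63 and 10430 CPM without, and the mesenchymal list 2300 CPM with Snai2 and 2860 CPM without. The luminal regulators had a median of 2 of 8 found and 600 CPM in cells with Trp63, and of 1 of 8 and 200 CPM in those without. Cells with Trp63 had a median of 2597 genes and those without 2002. Over all 96 pregnancy cells, which hold both lineages, cells with Trp63 showed a median of 10 of the 16 target and adhesion genes and those without it 6. Inside the 33 cells with both marker sets the medians were 9 and 9. Over the 96 cells Id4 was found with the alveolar regulator Elf5 in 2 cells against 10.1 under independence, Trp63 with Elf5 in 5 against 12.7 and Snai2 with Elf5 in 9 against 16.2, while Sox10 was found with Elf5 in 21 against 17.9. Inside the 33 cells these counts were 1 against 4.67, 4 against 6.67, 6 against 9.33 and 12 against 12.0.

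Over all 222 cells, and the 7904 genes found in at least 10% of them, the gene most like Trp63 by Pearson's r of log levels was Col4a5 (0.48), a basement membrane collagen. The most alike were the uncharacterised gene 1600014C10Rik for Snai2 (0.45), Ecrg4 for Id4 (0.43), Emc6 for Sox10 (0.32), Ptprs for Runx1 (0.52), just above the basal integrin Itga6 (0.52), and Tcf7l2 for Nfib (0.36). Col3a1, a fibroblast collagen, led for Zeb1 (0.57) and came after Rarres2 (0.45) for Zeb2 (0.44). Col3a1 is among the fibroblast markers used above, so this is no separate result. Zeb1 was found in 11 and Zeb2 in 16 of the 222 thinned cells. These values span both lineages and all depths, and are descriptions of 222 cells from 3 samples. Within the 85 adult basal cells other genes led, such as Hdac6 for Trp63 (0.47) and Tspan2 for Sox10 (0.53).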

How the data were processed

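The authors mapped read pairs from single cells (Fluidigm C1, Nextera XT libraries, NextSeq 500) to mm10 with Subread 1.4.6 and assigned them to genes with featureCounts and the RefSeq annotation built into Rsubread. The files the authors deposited give, for 1 cell each, unnormalized counts of read pairs by Entrez gene, without molecular identifiers. Strand was not given in the sources used here. Capture sites were inspected by eye by the authors, and no doublet caller was run here.

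The RefSeq table of GRCm38.p6 gave a symbol for 25275 of 27179 IDs. Left out were IDs with no symbol (1.20% of reads), 15 genes of mitochondrial origin (9.54%) and 125 ribosomal ones (1.72%), so 25135 genes remained. Cells with 50000 or more reads were kept (the study also asked for a minimum number of genes, and more reads of luminal cells). Detection was counted after thinning each cell to 50000 reads without replacement. Counts were summed over a group and given as CPM or, with the exonic length in the files, as RPKM. A sum of 0 entered ratios at 3 counts. Ratios were given for genes that reached 1 CPM in 3 cells. Shares have Clopper-Pearson intervals, sums Poisson intervals and ratios exact conditional intervals. No test was run, since each group is 1 sample. TMM factors came from edgeR 4.0.16 in R 4.3.3, all else from Python 3.11.15, numpy 2.4.6 and scipy 1.17.1. The scripts were tested on simulated counts.

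The 9 regulators and all lists were chosen with earlier results of these data known. The text names all 9 regulators and, from each list, up to 4 genes with the largest log2 ratio in either direction among those found in 20% or more of the thinned cells of the higher group. Other list genes were named after their values were seen (Epcam, Crb3, Cdh1, Fn1, Stat5a, Elf5 and the junction genes with a motif). The marker rule (4 of 8 markers at 20 CPM) was also chosen after the data were seen. Genes alike were the top ones by Pearson's r over cells. Alternatives were no thinning, 100000 reads, 5 reads, the study's minimums, totals without milk genes, means of cells' CPM, the leading cell left out, TMM, the study's lineage lists for the classes, and independence within bins of genes per cell. Leaving out cells with other types' markers, leaving the highest cell out of the means, joining the basal-marked classes and drawing the thinning again were added after the data were seen. In the repeated draws the marker classes were taken from the thinned cells.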

Additional observations from a re-analysis of the deposited data

Results flagged for a closer look

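For 3 regulators the basal to luminal log2 ratio pointed the opposite way in adult and pregnancy cells, and the difference between the stages was not tested, since each group is 1 sample. Sox10 was at 0.66 between the adult sorts and at -0.55 between basal-marked and luminal-marked pregnancy cells. Zeb1 was at -7.27 and 1.61, and Zeb2 at -4.18 and 2.65. Without the 1 basal-marked cell that held most of their reads, the pregnancy values were 0.79 for Zeb1 and 0.64 for Zeb2. In adult luminal and in pregnancy cells the Zeb reads lay all or almost all in cells with markers of another cell type, as given above. The 17 Zeb reads of adult basal cells lay in cells below the rule of 3 such markers. Of these reads 16 lay in cells 9 and 49, which carried 2 fibroblast and 2 pericyte markers.

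Reads of the regulators were also found in the libraries below 50000 reads, which entered no comparison. The 27 adult basal libraries of this kind held 12 reads of Trp63, 5 of Id4, 8 of Sox10, 1330 of Runx1, 138 of Zeb2 and 336 of Nfib. All 138 Zeb2 reads were in 1 library, against 16 in the 85 cells analysed. The 2 adult luminal libraries held 14 reads of Sox10, 26 of Runx1 and 33 of Nfib. The 27 pregnancy libraries held 14 reads of Trp63, 94 of Snai2, 10 of Id4, 467 of Runx1, 5 of Zeb2 and 1151 of Nfib. Runx1 came to 3885 CPM in the shallow adult basal and 1158 CPM in the shallow pregnancy libraries.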

How the results depend on the processing

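Of the recomputed main results (regulators per cell, regulators past 2-fold and pairs above independence), 61 stayed within the limits set and 18 did not. Without thinning the median number of regulators per cell was 4 in adult basal, 3 in adult luminal and 4 in pregnancy cells, and 22 pairs lay above independence in adult basal cells. With 5 or more reads asked for, adult basal and pregnancy cells showed 2 regulators, and 8 pairs lay above independence in adult basal and 7 in adult luminal cells. Without the cells that carried other types' markers, 4 pairs did so in adult luminal and 10 in pregnancy cells. In 1 repeated draw of the thinning the adult basal count was 9 pairs. The number of regulators lower in basal-marked pregnancy cells was 0 without milk genes in the totals and 0 by the mean of cells' CPM. It was 1 by that mean without the cell highest in the pregnancy group. With the study's lineage lists it was 1, and in each of 3 repeated draws it was 1. Those draws also set the marker classes anew, with 29, 24 and 30 basal-marked pregnancy cells in place of 32. The number higher in adult basal than luminal cells was 4 or 5 under the alternatives run. Of the log2 ratios 133 kept their side of the 2-fold line or stayed within their interval, 20 moved, 5 passed and 14 lost the 2-fold line. The 1 that reversed was Zeb2 between the adult sorts, at least 1.67 without cells carrying other types' markers. That value sets 16 basal reads, 10 of them in adult basal cell 49, against the floor of 3 reads. Of the shares 458 stayed and 55 moved. No paired analysis was possible because no test was run and the cell numbers pair nothing. Depth limits low genes: Zeb1, Zeb2 and Twist2 rest on few reads, and a share of 0 in 41 cells allows up to 7.32%.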
